A study of Mus musculus with 6 samples.

Results

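Chemokines and their receptors were examined for 5-hydroxymethylcytosine (5hmC), the base that TET enzymes make from 5-methylcytosine, in mouse blood cells that carry the leukaemia fusion AML1-ETO, with and without Tet2. The genes were taken by symbol (Ccl, Cxcl, Ccr, Cxcr or Xcr followed by a number, or beginning with Cx3c) from the RefSeq protein-coding genes of the mouse build GRCm38, which gave 57 of 21883 genes, 38 ligands and 19 receptors. A further 5 entries with such symbols, Cxcl11 among them, are not listed as protein-coding and were left out. Ccl21c, one of the near-identical copies of Ccl21, is listed at bases 59769 to 60899 of chromosome 4, ahead of the first peak of that chromosome at 3088902, and was not analysed here, which left 56 genes.

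Chemokines are small secreted proteins that direct the movement of white blood cells. They are classed by the spacing of their first cysteines as CC, CXC and CX3C, and they act through receptors of the G protein-coupled family that mostly bear the name of the ligand class. Some pairs, such as Cxcl12 with Cxcr4, hold stem and progenitor cells in the marrow, while others, such as Cxcl1 and Cxcl2 with Cxcr2 or Ccl2 with Ccr2, draw neutrophils and monocytes to inflamed tissue. Many of these genes arose by duplication and lie side by side, so neighbours can share one stretch of DNA and its 5hmC.

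All cells came from C57BL/6 mice with Tet2fl/fl;CreER, a Tet2 gene that Cre can excise and a Cre that acts when 4-hydroxytamoxifen (4-OHT) is given. Kit-enriched bone marrow cells had been infected with the MigR1 retrovirus that carries the AML1-ETO fusion and GFP, replated in methylcellulose and then grown in suspension with SCF, IL-3 and IL-6, and all libraries are labelled as passage 5. The flox group (2 libraries, Tet2fl/fl) received ethanol, and the KO group (2 libraries, Tet2-/-) received 200 nM 4-OHT for 2 passages, or 4 days. Immature myeloid cells that were GFP+ and CD16/32+ and lacked CD11b and Gr1 were sorted, and DNA fragments bound by a 5hmC antibody were sequenced. Whether replicates came from different cultures or mice is not stated, so p-values measure the spread between these 4 libraries, which may be technical. Only the KO cultures received 4-OHT, so the drug, active Cre and loss of Tet2 cannot be told apart.

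Each library was represented by the authors' list of peaks, 116539 to 122101 per list, and the number of reads behind them was unknown. The measure used below, called length, is the number of bases under peaks in a gene and 5 kb at both ends. Each list was called by itself, and a genome-wide shift of 5hmC need not show in this length. Tet2 itself held 1981 and 3509 bp (flox) against 2432 and 2448 bp (KO), which checks nothing, since which exons are excised is not stated. Of the 7 loci that encode markers of the sort and of the enrichment, 6 had peaks in all 4 libraries. Kit, the receptor used for enrichment, had 4724 and 4069 bp (flox) against 2351 and 3359 bp (KO), and Fcgr2b and Ly6g were also lower in both KO libraries. Itgam, which encodes CD11b, had 5673 and 5938 bp (flox) against 6763 and 8553 bp (KO), and Ly6c2 was also higher in both. None of these passed limma's test, and their part in the results below was not tested. Peaks are no measure of expression, so these loci do not show which cells were sorted.

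The chemokine system genes carried 5hmC in patches, and as a set they held fewer called bases in KO than in flox cells. The 56 genes and their flanks merge into 50 stretches of 1025.4 kb in all, in which a peak beside 2 genes counts once. Called length in them was 67746 and 65139 bp in flox replicates 1 and 2, and 51366 and 52030 bp in KO replicates 1 and 2. The KO libraries were thus the lower ones, by 22.2% on average (66443 ± 1843 bp against 51698 ± 470 bp, SD, n = 2; exact permutation, two-sided, p = 0.33, the smallest that 2 against 2 allows). Over the merged spans of all protein-coding genes the same comparison gave 3.8% less in KO. The number of peaks was 69 and 65 in flox and 57 and 61 in KO (11.9% fewer, exact permutation p = 0.33). The drop was uneven, and of the 43 genes with any called length 28 had a log2 difference below 0 (65.1%, against 54.5% of all genes). The largest drops in mean called length were at receptors: Ccr4 (-2003 bp), Ccr10 (-1749 bp), Ccr7 (-1606.5 bp), Ccr8 (-1397.5 bp) and Cxcr2 (-1341.5 bp). At Ccr7 only flox replicate 1 was high, and at Cxcr2 only flox replicate 2. The largest rise was at Ccl22 (613 bp).

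Receptor genes were more densely covered than ligand genes. Peaks covered 9.87% and 8.73% of the receptor spans in the flox libraries and 6.98% and 6.19% in the KO libraries. Over the ligand spans they covered 4.78% and 5.03% in flox and 3.91% and 4.45% in KO. The mean of the 4 libraries was 7.94% for receptors, 4.54% for ligands and 4.50% for all protein-coding genes. The ligand share is taken over 658.0 kb, of which 158.0 kb on chromosome 4 had no called base in any library. Those 158.0 kb lower the ligand share, and whether reads can be placed there uniquely was not tested. Called length was 29.2% lower in KO at receptors and 14.8% lower at ligands (exact permutation p = 0.33 for each, and whether the 2 differ was not tested). Receptor spans held 36 and 32 peaks in flox and 28 and 25 in KO (22.1% fewer, exact permutation p = 0.33). Ligand spans held 33 and 33 in flox and 29 and 36 in KO, where the groups overlapped (1.5% fewer, exact permutation p = 1.0).

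**Figure D1:**
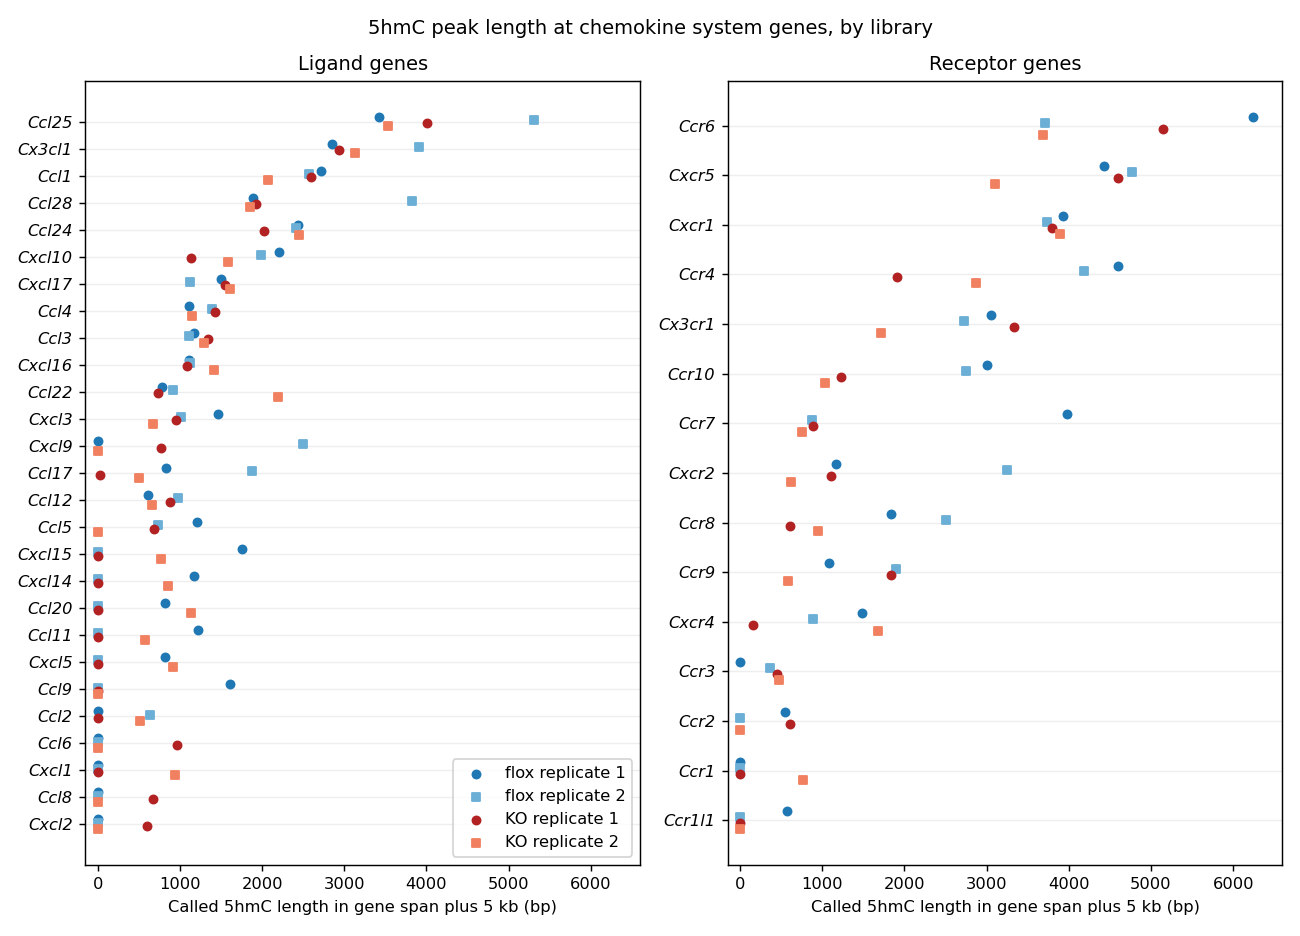
Called 5hmC length (x axis, bp) in the span plus 5 kb of 42 of the 43 genes with a peak in at least 1 library, ligands on the left and receptors on the right, with 1 point per library (blue flox, red KO). Ccr6 reaches 6245 bp in flox replicate 1, and at Ccr4, Ccr8 and Ccr10 both red points lie to the left of both blue points.

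By gene, 25 of the 56 had called bases in every library (44.6%, against 57.3% of all genes). A further 18 had them in 1 to 3 libraries (against 4393 of 21775 over all genes) and 13 in none (23.2%, against 22.5%). The 56 genes are short, with a median length of 5240 bp against 17219 bp for all genes. There is thus less DNA in which to find a peak, and whether length plays a part in these shares was not tested. The filter for the test over all genes, a mean of at least 500 bp, was passed by 28 of the 56 (against 65.0% of all genes). Of the 56, it left out 15 genes that had some called length and the 13 that had none. No gene passed limma's test at an adjusted p under 0.05, neither among the 28 nor among all 14159 genes tested (0 called, 0% of the genes tested). At an unadjusted p under 0.05 by limma there were 3 of the 28, all lower in KO (10.7%). Of all genes tested, 4.3% were lower in KO at that level and 1.84% higher. With peaks scored 100 or more there were 0 of 19 (against 601 of 9995 genes, in either direction). With the 50000 highest scored peaks there were 0 of 19 (against 627 of 9527). Gene bodies alone gave 1 of 13 (against 690 of 10708), 10 kb flanks 5 of 41 (1026 of 16466) and peak number 4 of 28 (1188 of 14159).

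Among these 28 genes, 22 had a log2 difference (KO minus flox) below 0, where 54.6% of all genes did, and the median was -0.26 against -0.04 over all genes tested. With the filter dropped, 28 of the 43 genes with any called length were lower (65.1%, against 54.5% of all genes) and the median was -0.15. With 10 kb in place of 5 kb at both ends, 25 of 41 genes were lower (61.0%, against 55.2% of all genes). The median was then -0.04, close to that over all genes under that setting. The median was also nearer 0 with peaks scored 100 or more (-0.06), with the 50000 highest scored peaks (-0.11) and without KO replicate 2 (-0.14). After scaling each library to a common total, neither KO library reached a flox library at 8 of the 28 genes (28.6%, background 20.7%). Both KO libraries exceeded the flox libraries at 2 (7.1%, background 14.6%). With neither scaling nor filter, the counts were 8 and 3 of the 43 genes with any called length. Over all genes they were 3292 and 2139 of the 16874 with any called length.

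**Figure D2:**
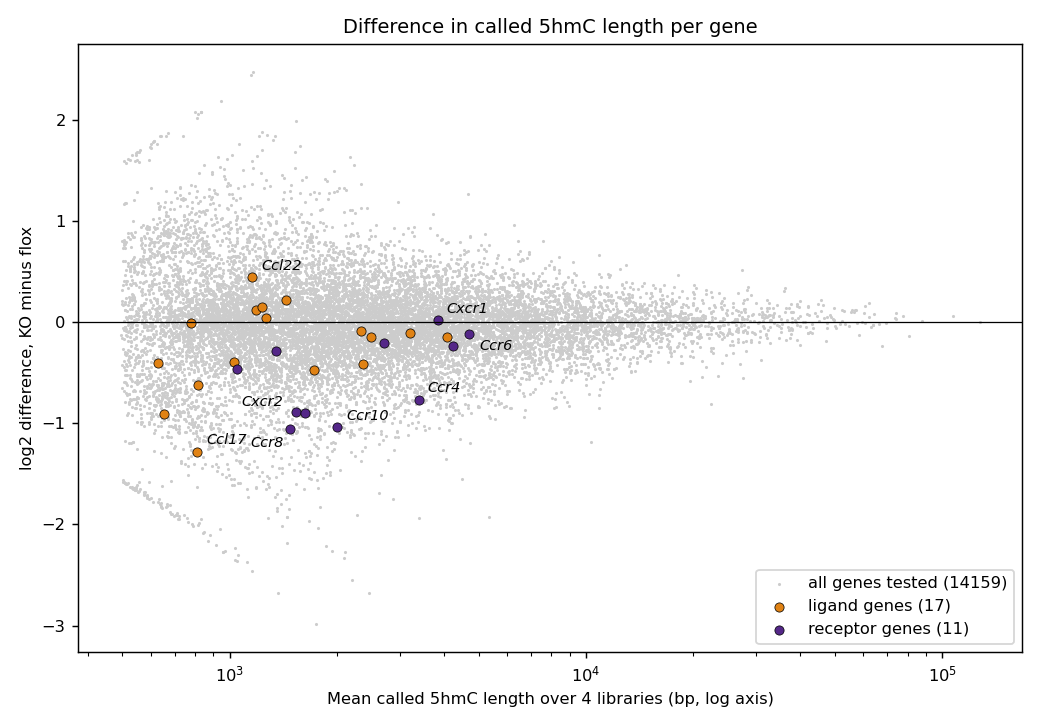
Difference in called length per gene (y axis, log2 scale, KO minus flox) against its mean over the 4 libraries (x axis, bp, log axis) for all 14159 genes tested (grey), with 17 ligand genes in orange and 11 receptor genes in purple. Of the 11 receptor genes, 10 lie below the zero line (90.9%, against 54.6% of all genes tested). A further 5 receptor genes with called length fell under the filter and are not drawn, and these differed in both directions. None of the coloured points passed limma's test.

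The 3 genes below that level were the CC receptors Ccr10, Ccr8 and Ccr4, which are best known from lymphocytes that home to skin and from helper and regulatory T cells. Ccr10, the receptor for the skin and mucosal chemokines Ccl27 and Ccl28, lies at chromosome 11, 101172998 to 101175443. Its span and flanks held 3007 and 2755 bp (flox) against 1228 and 1036 bp (KO). The groups did not overlap, and the log2 difference was -1.04 (SE 0.25, adjusted p = 0.773 by limma). None of these bases lay in Ccr10 itself. A region at 101170760 to 101171780, which overlaps the neighbouring gene Plekhh3, was called in both flox libraries (scores 81.18 and 68.26) and in neither KO library. The other region, at 101175476 to 101177461 in the neighbour Cntnap1, was called in all 4 libraries, 1986 and 1884 bp wide in flox and 1228 and 1036 bp wide in KO. Scores are the authors' own for each peak (-10 times log10 of its p-value, lowest 50) and depend on the unknown depth. Using peaks scored 100 or more brought the log2 difference of Ccr10 to -0.24.

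Ccr8, the receptor for Ccl1, lies at chromosome 9, 120092133 to 120094906. Its span and flanks held 1836 and 2508 bp (flox) against 606 and 943 bp in KO (difference -1.06 on the log2 scale, SE 0.31, adjusted p = 0.773 by limma). Here too all called bases were outside the gene. The upstream region at 120089695 to 120090975, 1158 bp from the start site, was called in every library, with 965 and 1281 bp (flox) against 606 and 943 bp (KO). The downstream region at 120095840 to 120097066 was called in flox alone, with scores of 115.24 and 64.88. In both regions the flox libraries had more called bases than the KO libraries. With peaks scored 100 or more the sign of the difference turned (0.23).

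Ccr4, the receptor for Ccl17 and Ccl22, lies at chromosome 9, 114490316 to 114505476. It held 4595 and 4187 bp (flox) against 1910 and 2866 bp (KO), and the groups did not overlap. The log2 difference was -0.77 (SE 0.24, adjusted p = 0.773 by limma), and -0.53 without KO replicate 1. Part of the called length was inside the gene body, with 3021 and 3025 bp (flox) against 1910 and 1869 bp (KO). Regions at 114490503 to 114491607 and 114496106 to 114497509 were called in all 4 libraries. A downstream region at 114486886 to 114488114 was missing from KO replicate 1 alone, and the other 3 regions were each called in a single flox library. No region of Ccr4 therefore counts as flox-only.

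**Figure D3:**
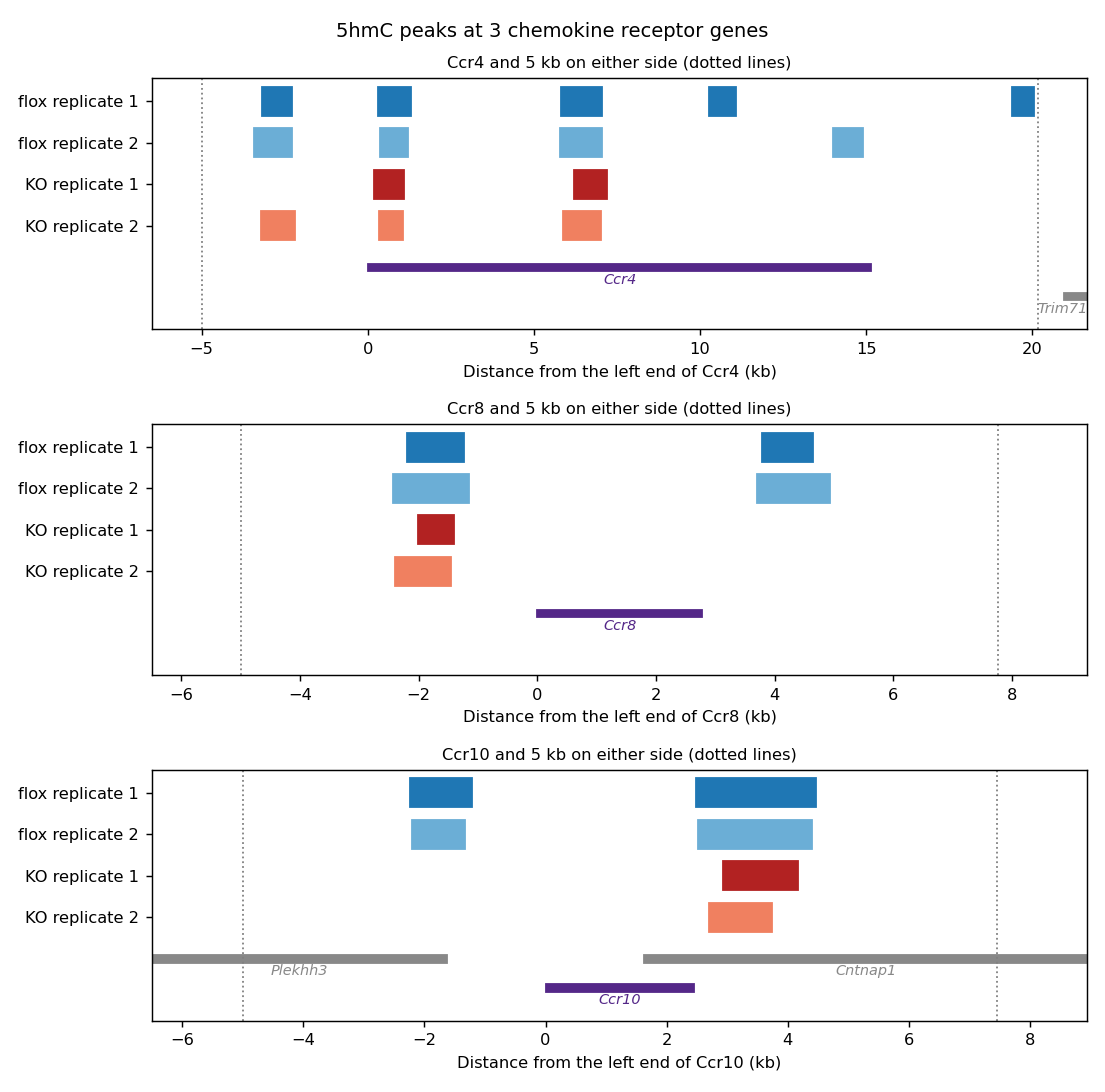
Peaks of each library (coloured boxes) along Ccr4, Ccr8 and Ccr10 (purple) and neighbouring genes (grey), with distance in kb from the left end of each receptor gene on the x axis and dotted lines at the ends of the 5 kb flanks. The right-hand box of Ccr8 and the left-hand box of Ccr10 appear in both flox rows and in neither KO row.

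The second Ccr4 region lies over an annotated start site of the gene, where few of these genes had a peak. RefSeq start windows (250 bases before to 50 after a start, GRCm38.p6) were at hand for 42 of the 57 genes, 49 windows in all. A peak touched 5 of the 49 windows in at least 1 library (10.2%, against 13.98% of 21262 windows of all protein-coding genes) and 1 in all 4 (2.04%, against 5.28%). The windows of these genes are poor in CpG, the dinucleotide at which most methylation and hence most 5hmC is found, with a median of 4 CpG per window against 13. Of the 5, the 3 below belong to genes that the naming rule picked, those of Cxcl10 and Ccl20 are not printed, and capitals mark each CpG. Peaks covered the whole Ccr4 window (chr9:114496495-114496794, minus strand) in 3 libraries and 278 of its 300 bases in KO replicate 1. They covered 138 and 74 bases of the Ccr6 window (chr17:8235793-8236092, plus strand) in flox replicate 1 and KO replicate 1, and 111 bases of the Ccl1 window (chr11:82179763-82180062, minus strand) in KO replicate 2 only.
Ccr4: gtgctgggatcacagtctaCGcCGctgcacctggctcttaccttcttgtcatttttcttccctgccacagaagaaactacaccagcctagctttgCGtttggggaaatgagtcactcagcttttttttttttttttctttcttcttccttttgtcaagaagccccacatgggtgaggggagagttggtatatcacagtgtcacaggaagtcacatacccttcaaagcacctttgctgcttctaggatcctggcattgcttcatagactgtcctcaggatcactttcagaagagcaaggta
Ccr6: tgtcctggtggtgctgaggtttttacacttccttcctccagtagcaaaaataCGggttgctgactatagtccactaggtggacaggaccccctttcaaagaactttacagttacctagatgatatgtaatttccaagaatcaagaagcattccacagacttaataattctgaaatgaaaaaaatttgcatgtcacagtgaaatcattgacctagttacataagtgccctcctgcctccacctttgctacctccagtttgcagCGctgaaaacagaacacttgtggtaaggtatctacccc
Ccl1: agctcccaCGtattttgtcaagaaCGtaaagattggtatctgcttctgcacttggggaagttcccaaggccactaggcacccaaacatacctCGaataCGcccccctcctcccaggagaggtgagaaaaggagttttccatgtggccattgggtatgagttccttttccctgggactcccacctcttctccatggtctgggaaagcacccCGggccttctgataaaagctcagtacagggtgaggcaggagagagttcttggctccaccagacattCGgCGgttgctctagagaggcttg

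These windows hold 3, 2 and 7 CpG, so the window that was called in every library is not the one with the most CpG. The letters TGTGGT, the core bound by RUNX proteins and by the AML1 part of AML1-ETO, were searched on both strands. They occurred in 11 of the 49 windows (22.4%, against 15% of the windows of all protein-coding genes), and in the Ccr6 window at base 31 after the start. The region that reaches the Ccr6 window ends at 8235930, ahead of the start at 8236043, so no called base covers the motif there. The motif holds no CpG and so does not overlap the capitals.

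At the 4 genes with the most called length, Ccr6, Cxcr5, Ccl25 and Cxcr1, the groups overlapped. Ccr6, the receptor for Ccl20 on B cells and some helper T cells (chromosome 17, 8236041 to 8258519), was first with 6245 and 3709 bp (flox) against 5149 and 3686 bp (KO). Each group had 1 higher and 1 lower library (difference -0.12 on the log2 scale, SE 0.29, adjusted p = 0.968 by limma). Its 8 regions included 3 called in all libraries, 1 of them just upstream of the start site. Cxcr5, which guides B cells to follicles (chromosome 9, 44511787 to 44526444), had 4425 and 4775 bp (flox) against 4601 and 3099 bp (KO). Most of this lay outside the gene, in a region at 44528388 to 44530852 that was called in all libraries and in regions within Bcl9l. The log2 difference of -0.24 was 0.02 without KO replicate 2.

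Cxcr1 and Cxcr2 are neighbouring receptors on chromosome 1 for the neutrophil-attracting CXC chemokines. Cxcr1 (74191785 to 74194708) had the largest share of its span and flanks under peaks of all 56 genes, 29.67%. It had 3927 and 3730 bp (flox) against 3792 and 3889 bp in KO (log2 difference 0.02, SE 0.19). All 4 of its regions were called in every library. Cxcr2 (74153994 to 74161246) had 1167 and 3245 bp (flox) against 1106 and 623 bp in KO (difference -0.89 on the log2 scale, SE 0.48, adjusted p = 0.836 by limma). The groups did not overlap, though flox replicate 1 lay close to KO replicate 1. The 2 regions inside Cxcr2 were called in flox replicate 2 alone, and without that library the difference was -0.29. With peaks scored 100 or more it turned to 0.56.

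Cx3cl1 and Cx3cr1 form the CX3C pair, a membrane-bound chemokine and its receptor on monocytes. Cx3cl1 (chromosome 8, 94772180 to 94782427) had 2845 and 3903 bp (flox) against 2936 and 3127 bp in KO (log2 difference -0.11, SE 0.24). The region inside it at 94774775 to 94776190 had the highest peak scores of all these loci, 330.45 and 397.08 in flox and 537.38 and 499.49 in KO. Cx3cr1 (chromosome 9, 120048683 to 120068296) had 3049 and 2723 bp (flox) against 3328 and 1720 bp in KO (-0.20, SE 0.32). Its 3 constant regions all lay downstream, while the 3 regions inside the gene were called in 1 or 2 libraries each. Neither gene's groups stood apart.

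Beside Cx3cl1 lie the genes of both Ccr4 ligands, made by dendritic cells and macrophages. Ccl17 (chromosome 8, 94809380 to 94812038) had 828 and 1878 bp (flox) against 31 and 503 bp (KO), without overlap (difference -1.28 on the log2 scale, SE 0.59, adjusted p = 0.824 by limma). All of it was upstream of the gene, and the 31 bp in KO replicate 1 are the edge of a region that was called in every library. The difference was -0.82 without KO replicate 1 and -0.57 with 10 kb at both ends. Ccl22, on the other side of Cx3cl1, had 783 and 917 bp (flox) against 732 and 2194 bp in KO (0.44, SE 0.44), where the groups overlapped.

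Other ligands with much called length were Ccl25 and Ccl1. Ccl25, the thymus and gut ligand of Ccr9 (chromosome 8, 4325205 to 4360020), had 3424 and 5312 bp (flox) against 4002 and 3535 bp in KO (log2 difference -0.15, SE 0.26), with 3 regions inside the gene called in all libraries. Ccl1, the ligand of Ccr8 (chromosome 11, 82176666 to 82179812), had 2722 and 2565 bp (flox) against 2589 and 2069 bp in KO (-0.15, SE 0.23). Its 2 regions were called in all libraries, and a peak reached the start window in KO replicate 2 alone. At both genes the groups overlapped.

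Ccl5, a chemokine of T cells and monocytes (chromosome 11, 83525778 to 83530518), had 1204 and 731 bp in flox, 680 bp in KO replicate 1 and none in KO replicate 2. Its single region at 83526604 to 83527807 makes up all of this (difference -0.91 on the log2 scale, SE 0.66, adjusted p = 0.865 by limma), and without KO replicate 2 the difference was -0.28. Cxcl10, an interferon-induced ligand of Cxcr3, and Cxcl3, a ligand of Cxcr2, were the other 2 of the 8 genes with both KO libraries lowest. Cxcl10 had 2200 and 1989 bp (flox) against 1138 and 1590 bp (KO), and Cxcl3 had 1464 and 1017 bp (flox) against 950 and 674 bp (KO). Both fall outside the naming rule and were picked out after their values were seen, like Ccl2, Ccl9, Ccl22, Ccr3, Ccr7 and Ccr9. The Cxcl10 regions also lie in the overlapping gene Art3.

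The 2 tested genes with both KO libraries highest differed little. Cxcl17, a mucosal chemokine (chromosome 7, 25400053 to 25412886), had 1495 and 1124 bp (flox) against 1545 and 1606 bp in KO (log2 difference 0.22, SE 0.28). Ccl3, a macrophage chemokine (chromosome 11, 83647843 to 83649378), had 1176 and 1113 bp (flox) against 1339 and 1292 bp in KO (0.15, SE 0.27). Its only region, at 83642497 to 83644181, lies outside the gene and is shared with the flank of the overlapping gene Ccl4.

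Ccr7, which brings T cells and dendritic cells into lymph nodes (chromosome 11, 99144199 to 99155077), had 3976 and 878 bp (flox) against 890 and 751 bp in KO (difference -0.90 on the log2 scale, SE 0.57, adjusted p = 0.856 by limma). Flox replicate 1 stood apart from the other 3 libraries, and the groups overlapped.

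The pair that retains progenitors in the marrow had few or no peaks, and those of low score. Cxcr4 (chromosome 1, 128588199 to 128592299) had 1481 and 883 bp (flox) against 154 and 1675 bp in KO (difference -0.46 on the log2 scale, SE 0.63, adjusted p = 0.927 by limma). The KO libraries were the lowest and the highest of the 4, and without KO replicate 1 the difference turned to 0.40. None of its 4 regions was called in all libraries, and the highest score was 71.27. Cxcl12 (chromosome 6, 117168535 to 117181368) had no called base in any library, with the nearest peaks 6657 to 6955 bp from the gene.

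**Figure D4:**
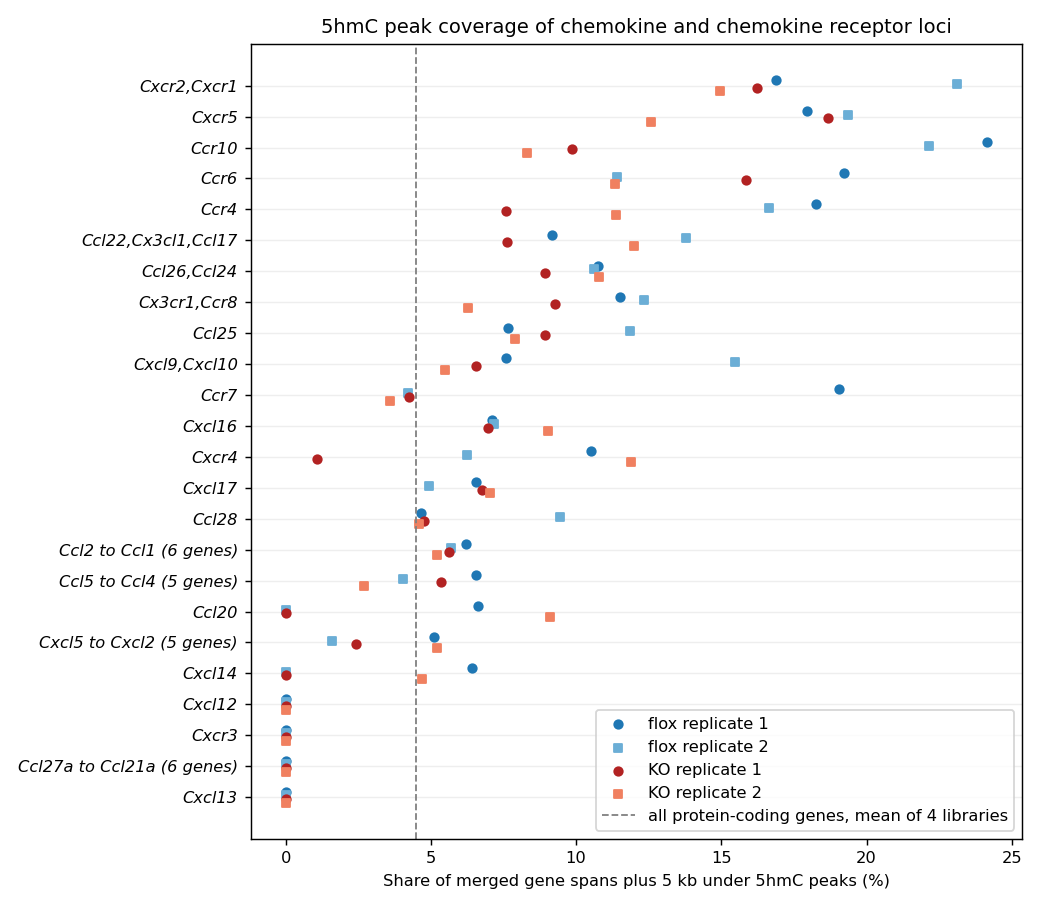
Share of the merged spans plus 5 kb under peaks (x axis, %) for 24 of the 25 loci formed by joining genes within 500 kb of each other, with 1 point per library (blue flox, red KO) and a dashed line at the 4.50% of all protein-coding genes. The Cxcr2 and Cxcr1 pair is at the top, while Cxcl12, Cxcr3, Cxcl13 and the chromosome 4 group of 6 ligands lie at 0 in every library.

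Of the receptors that lie together on chromosome 9, Ccr9, the gut-homing receptor, had 1081 and 1892 bp (flox) against 1832 and 581 bp (KO), and the groups overlapped. One region inside it, at 123774472 to 123775959, was called in every library. Ccr1, a receptor of neutrophils and monocytes (123962126 to 123968692), had a peak in KO replicate 2 only, of 765 bp. Ccr2, the receptor that brings monocytes out of the marrow (124101918 to 124109140), had 541 bp in flox replicate 1, 603 bp in KO replicate 1 and none in the other two. Ccr3, an eosinophil receptor under the filter, had none in flox replicate 1, 369 bp in flox replicate 2, and 450 and 478 bp in KO, so both KO libraries were higher. Cxcr6 and Xcr1 had none in any library.

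On chromosome 11, the 6 genes from Ccl2 to Ccl1, which include the monocyte chemokines Ccl2, Ccl7, Ccl8 and Ccl12 and the eosinophil chemokine Ccl11, had 4552 and 4178 bp (flox) against 4136 and 3821 bp (KO). Most of this belonged to Ccl1 in each library. Ccl2 itself had 636 bp in flox replicate 2, 519 bp in KO replicate 2 and none in the others. The 5 genes from Ccl5 to Ccl4 had 4697 and 2899 bp (flox) against 3847 and 1931 bp (KO). On chromosome 5, the neutrophil chemokines Cxcl5, Cxcl3, Cxcl15, Cxcl1 and Cxcl2 had 3230 and 1017 bp (flox) against 1545 and 3294 bp (KO), so that the highest and the second highest value came from different groups.

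The lymphoid-organ chemokines on chromosome 4 (Ccl27a, Ccl21d, Ccl21b, Ccl27b, Ccl19 and Ccl21a), which direct T cells and dendritic cells to lymph nodes and skin, had no called base in 158.0 kb of spans and flanks. The nearest peak to Ccl19 was 109498 to 126408 bp away, and to Ccl27a 8066 to 8410 bp. These genes have near-identical copies, and how reads that map to several places were treated is not stated, so absence of peaks was not separated from absence of uniquely mapped reads. The other genes with none were Ccl7, Ccl26, Cxcl13 and Cxcr3, beside Cxcl12, Cxcr6 and Xcr1. At Cxcl13, the B-cell chemokine that binds Cxcr5, the nearest peaks were 5474 to 5829 bp away, just beyond the flank.

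The 18 genes with peaks in 1 to 3 libraries did not split by genotype. By number of libraries, 7 of the 56 had called bases in 1, 8 in 2 and 3 in 3. Over all 21775 genes these were 1447, 1275 and 1671. Which libraries they were was not counted over all genes, so the splits below have no background. Of the 7 with a peak in a single library, 5 had it in a KO library (Ccl8, Ccl6 and Cxcl2 in replicate 1, Cxcl1 and Ccr1 in replicate 2) and 2 in flox replicate 1 (Ccl9 and Ccr1l1). Of the 8 with peaks in 2 libraries, 5 had them in flox replicate 1 and KO replicate 2 (Ccl20, Ccl11, Cxcl14, Cxcl5 and Cxcl15). None of the 8 had them in both flox libraries alone or in both KO libraries alone. Ccl9, a myeloid chemokine, had 1604 bp in its 1 library, the most of the 7.

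By place, 103 regions (overlapping peaks of the 4 lists, merged) touched the spans and flanks. Of these, 49 (47.6%) overlapped one of the 56 genes by at least 1 bp, 7 overlapped only another gene, and 47 no gene. All 4 libraries shared 38 (36.89%, against 40.51% of regions at all protein-coding genes), and 39 were called in 1 library (37.86%, against 27.16%). Peaks in the 38 shared regions had a median score of 133.71, and those in the 39 a median of 62.32. Flox libraries held 14 and 10 of the regions called once, and KO libraries 7 and 8. Over all protein-coding genes flox libraries also held more of them, 5731 and 6112 against 4814 and 5526 in KO. The 2 flox-only regions are those at Ccr8 and Ccr10, and no region was KO-only. Flox-only regions thus touched 2 of the 56 genes, where 10.8% of all genes have one, and KO-only regions none, where 8.75% have one.

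Beyond the family, 42 other genes of the pathway were examined, and 36 passed the filter. They comprise further ligands and receptors, G protein subunits, proteins that silence receptors, and effectors of cell movement. None passed limma's test, and 23 were lower (63.9%, against 54.6% of all genes) and 13 higher in KO (median log2 difference -0.10, against -0.04 over all genes). With p under 0.05 before adjustment there were 3 (8.3%, against 6.14% of all genes), Pik3r5 (-0.66) and Prex1 (-0.29), which couple receptors to lipid kinase and Rac signalling, and Gnai3 (0.99), an inhibitory G protein subunit. They were named after their values were seen. A flox-only region touched 7 of the 42 genes (16.7%, against 10.8% of all genes) and a KO-only region 6 (14.3%, against 8.75%), and their median length was 23202 bp.

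Of the pathway genes with more flox-only regions, Ptk2b, a calcium-responsive tyrosine kinase, had 13660 and 9623 bp (flox) against 10043 and 9348 bp in KO (log2 difference -0.22, SE 0.19). Flox replicate 1 was the high one, and without it the difference was 0.004. Dock2, the Rac activator that white blood cells need to migrate, had 24715 and 23540 bp (flox) against 21354 and 25260 bp in KO (-0.04), in spite of 2 flox-only regions. Grk6, a kinase that switches receptors off, had 2012 and 2274 bp in flox, 1653 bp in KO replicate 1 and none in KO replicate 2 (-1.34, SE 0.70, and -0.28 without KO replicate 2). With more KO-only regions, Elmo1, the partner of Dock2, had 3 of them and 21702 and 18951 bp (flox) against 20792 and 19451 bp in KO (0.00). Dpp4, a peptidase that trims chemokines, had 2563 and 3204 bp (flox) against 3388 and 3907 bp in KO (0.31), and turned to -0.31 with peaks scored 100 or more. Pxn, an adhesion adaptor, had 8708 and 8026 bp (flox) against 8783 and 5090 bp in KO (-0.29, and 0.09 without KO replicate 2).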

How the data were processed

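5hmC-DIP-seq was analysed in 2 flox and 2 KO libraries, and the IgG control and input were not used here. Per the submitters' processing notes, CASAVA 1.8, Bowtie and MACS 1.4 were used with GRCm38 (mm10), with settings not stated. The deposited files are peak lists, 1 per library, with positions, a score and a p-value per peak. The deposited score equals -10 times log10 of the deposited p-value within 0.02 for all 475889 peaks. Read depth is unknown, so precision rests on 2 libraries a group.

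Called bp were summed per gene of the RefSeq GRCm38.p6 table with 5 kb at both ends. For the test they were scaled to a common total, filtered at a mean of 500 bp and put on the scale log2(bp + 500). Groups were compared by limma 3.58.1 in R 4.3.3 over 14159 genes with Benjamini-Hochberg adjustment, and differences of low genes are understated on that scale. The model was tested on simulated data. Sums over merged spans were compared by two-sided exact permutation (scipy 1.17.1). Regions are peaks of the 4 lists merged where they overlap by at least 1 bp. Python 3.11.15, pandas 2.3.3, numpy 2.4.6 and matplotlib 3.10.9 were also used.

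Genes named are those with a region of 1 genotype only, the 8 with the most called bp, at most 6 in each direction with a mean of at least 500 bp whose groups do not overlap, by size of difference, and Cxcr4, Cxcl12, Cxcr2, Ccr1, Ccr2 and Cx3cr1. Genes with no called base are given by name, and some genes outside this rule were added after their values were seen. For each genotype, at most 3 pathway genes are named, by their excess of regions of that genotype. The members, the pathway list and the markers were chosen with earlier results of these data known. Alternatives covered peak score, flank, pseudocount, filter, scaling, peak number, merging overlap, a replicate block and leaving out each library. Whether libraries of the same replicate number belong together is not stated, and the main model did not pair them. The values of 1 gene and of its locus are not reported here, though sums and counts over the family include them.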

Additional observations from a re-analysis of the deposited data

How the results depend on the processing

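No gene of the family or of the pathway list passed limma's test under any alternative with a fit, and 3 of the family had an unadjusted p under 0.05 in the main analysis. With all 4 libraries kept, this count of 3 became 0 with scores of at least 100 and 0 among the 50000 highest scored peaks. Its highest value was 5, with 10 kb flanks. The replicate block gave 0 passing genes and the same median of -0.26. Flox and KO deviations of same-numbered libraries were uncorrelated (Pearson r = 0.0068 over 14159 genes). The median difference was -0.04 with 10 kb flanks, and the cause was not tested. Called bp over the merged spans stayed lower in KO in each alternative run, with changes of -28.0% to -14.7%. Flox-only regions numbered 1 with scores of at least 100, 1 among the 50000 highest scored peaks, 0 in gene bodies and 4 with 10 kb flanks, where KO-only regions numbered 3. With 1 library left out, which loosens the definition, they numbered 5 to 16 and 2 to 8.

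Of 290 values for named genes, 31 had the other sign. With scores of at least 100 these were Ccr8 (0.228), Cx3cr1 (0.439), Cxcr1 (-0.173), Cxcr2 (0.561), Dock2 (0.037) and Dpp4 (-0.307). With the 50000 highest scored peaks they were Ccr6 (0.104), Ccr8 (0.248), Cx3cr1 (0.466), Cxcr1 (-0.14), Cxcr2 (0.575), Dock2 (0.067) and Dpp4 (-0.278). By number of peaks they were Ccl25 (0.029), Ccl3 (-0.005), Cx3cl1 (0.236) and Cxcr1 (-0.007). Ccl25 was 0.089 with 10 kb flanks, and Elmo1 was -0.012 without scaling. With 1 library left out, the lowest and highest values were -0.452 and 0.149 for Ccl25, -0.441 and 0.203 for Ccr6, -0.324 and 0.107 for Cx3cl1, and -0.6 and 0.196 for Cx3cr1. They were -1.331 and 0.402 for Cxcr4, -0.495 and 0.019 for Cxcr5, -0.153 and 0.074 for Dock2, -0.074 and 0.078 for Elmo1, -0.442 and 0.004 for Ptk2b, and -0.656 and 0.086 for Pxn. The cause was not tested.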
